A study of Homo sapiens with 12 samples.

Results

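The mitochondrial ribosomal protein genes encode the proteins of the ribosome that works inside mitochondria, and their RNA was followed here on 12 arrays of MDA-MB-231 cells transfected with forms of one microRNA. Members were all genes whose single platform symbol begins with MRPL or MRPS followed by digits and at most 1 letter, with pseudogenes and antisense transcripts left out and the brightest transcript cluster kept for each gene. The rule gave 74 genes of the 22411 genes named by 1 symbol, 48 with the MRPL prefix and 26 with the MRPS prefix. By their place in the human particle, 50 belong to the large subunit and 24 to the small one, since MRPS18A and MRPS30 sit in the large subunit despite their prefix. MRPL30, MRPS6 and MRPS16 share their clusters with another symbol and were left out. The symbol MRPS36 is carried on the platform as KGD4, a subunit of the 2-oxoglutarate dehydrogenase complex, and is not a member.

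MDA-MB-231 is a human triple-negative breast cancer line with mesenchymal features. Transfection with 50 nM of oligonucleotide lasted 48 h, and there were 3 arrays in each of 4 groups. The first group received the archetype, a mimic of miR-183-5p in its reference form. The other mimics were isomiRs, forms of the same microRNA with both ends displaced, by -2 nucleotides in the group called minus2 here and by +2 nucleotides in the group called plus2. The fourth group, the control, received a negative control oligonucleotide, so every group was transfected. Since the labels do not tell whether replicates were separate cultures, the p-values speak only of the spread among these samples, and that spread may be technical. All cells came from 1 line, grown and measured in bulk, in which fewer cells of a kind and less RNA per cell cannot be told apart.

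Mitochondria keep their own ribosome, built from RNA encoded in the mitochondrial genome and from proteins encoded in the nucleus, made in the cytosol and imported. It translates the few mitochondrial messages, all for membrane subunits of the respiratory chain and ATP synthase. The small subunit decodes the message, and the large subunit forms the peptide bond and passes the new chain through an exit tunnel to the inner membrane. Some of its proteins have bacterial relatives and others were added in mitochondria. A microRNA guides Argonaute to messages mainly through its seed, bases 2 to 8 from its 5′ end, so that a displaced 5′ end gives a different seed.

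The sequences of the mimics are shown because they set the groups apart, with the seed in capitals. The archetype is the RefSeq mature miR-183-5p, placed on GRCh38.p14 at chr7:129774967-129774988 on the minus strand and written in RNA letters. The isomiRs are given in DNA letters, as the labels have them.
archetype: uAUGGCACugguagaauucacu
minus2: tGTATGGCactggtagaattca
plus2: tGGCACTGgtagaattcactgt
Each is 22 nucleotides long, a run of 18 nucleotides is common to all 3, and no seed is the same as another.

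The deposited values are log2 signals from Affymetrix arrays, each hybridised from 100 ng of RNA, so that a value is relative to the other RNA of its sample. Array medians over all 70523 features lay between 4.73 and 4.80, and the number of arrays limits the precision. Genes with a mean signal above 4.54 were tested, 14940 in all, and all 74 members were among them. A gene was called where the adjusted p of limma (Benjamini-Hochberg, over the 14940 genes) was under 0.05. Markers of cell types were also read. VIM, CD44, LGALS1 and AXL gave log2 signals of 13.5 to 15.7 on every array. ESR1 (4.12 to 4.21), PGR (3.60 to 3.88) and the white blood cell gene PTPRC (4.08 to 4.22) stayed below the limit for testing. However, 7 of the 11 luminal genes and 7 of the 8 white blood cell genes on the array passed that limit. The markers therefore did not identify the line by themselves. Averaged over its 6 tested genes, the mesenchymal list was lower with each mimic, with mean log2 signals of 13.9 to 14.0 with the archetype, 14.0 with minus2 and 13.8 to 13.9 with plus2, against 14.4 in control. The luminal list averaged 7.36 to 7.44, 7.37 to 7.38 and 7.44 to 7.52 with the archetype, minus2 and plus2, against 7.33 to 7.34 in control. The white blood cell list averaged 7.30 to 7.33, 7.39 to 7.47 and 7.36 to 7.45, against 7.42 to 7.53 in control, and the fibroblast list averaged 4.45 to 4.61, 4.55 and 4.61 to 4.69, against 4.49 to 4.57 in control. Of the mesenchymal genes 1 was called higher and 3 lower with the archetype, 0 and 3 with minus2, and 0 and 6 with plus2. The median log2 differences of this list were -0.16, -0.15 and -0.36. ITGB1, an integrin subunit gene, moved farthest (-1.94, -1.59 and -1.57). AXL, a receptor kinase gene, was the one called higher with the archetype (0.26). For the 7 tested luminal genes these counts were 4 and 1, 1 and 0, and 4 and 0, for the 7 tested white blood cell genes 0 and 4, 1 and 2, and 2 and 2, and for the 3 tested fibroblast genes 0 and 0, 0 and 0, and 1 and 0. The part of these shifts in the results below was not tested.

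Mitoribosomal protein RNA moved mostly upward with the archetype and with minus2, by small amounts, and in both directions with plus2. With the archetype, 26 of the 74 members were called (35.1%), 24 higher and 2 lower than in control, where 24.6% of all tested genes were called, 14.3% higher and 10.3% lower. With minus2, 32 members were called (43.2%), 28 higher and 4 lower, against 29.4% of all tested genes, 17.5% higher and 11.9% lower. With plus2, 18 members were called (24.3%), 9 in each direction, against 33.6% of all tested genes, 17.4% higher and 16.2% lower. The share of members called higher was thus above the background with the archetype (32.4%) and minus2 (37.8%), and below it with plus2 (12.2%), while the shares called lower, 2.70%, 5.41% and 12.2%, were below the background with every mimic. Quantile normalisation of the arrays gave 13 of the 74 members higher and 7 lower with plus2, where 19.8% of all tested genes were higher and 14.8% lower. Without plus2 array 3 the split was 11 higher and 6 lower. The even split with plus2 thus depends on the scaling and on a single array. How far its share called higher lay below the background depends on the scaling too.

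The changes were small. The median log2 difference of the members from control was 0.11 for both the archetype and minus2 and 0.01 for plus2, against medians over all tested genes of 0.01, 0.01 and 0.00. Calls of 1.25-fold or more numbered 7 members (archetype), 10 (minus2) and 6 (plus2), which is 9.46%, 13.5% and 8.11% of them, against 10.1%, 12.4% and 15.3% of all tested genes. Arrays that did not overlap with control were found for 37, 40 and 27 members in the archetype, minus2 and plus2 groups (50%, 54.1% and 36.5%), against 41.2%, 44.9% and 42.8% of all tested genes. The shares of larger calls thus lay near or below the background. Members also had higher signals than most genes, and brighter genes were called more often: among the 11205 genes above the median signal, which include 71 members, 33.6%, 39.9% and 44.2% were called with the archetype, minus2 and plus2 against control, and 19.6%, 23.7% and 22.3% were called higher. In that fit, 27, 33 and 18 of the 71 members were called with the archetype, minus2 and plus2, 25, 29 and 9 of them higher. Read against these brighter genes, the members' overall shares of calls with the archetype and minus2 lay near or somewhat above the background. Their shares called higher stayed above it, and in the deposited scaling both shares with plus2 lay below it. The comparisons with control share its 3 arrays, so their likeness to each other is not a separate observation.

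**Figure D1:**
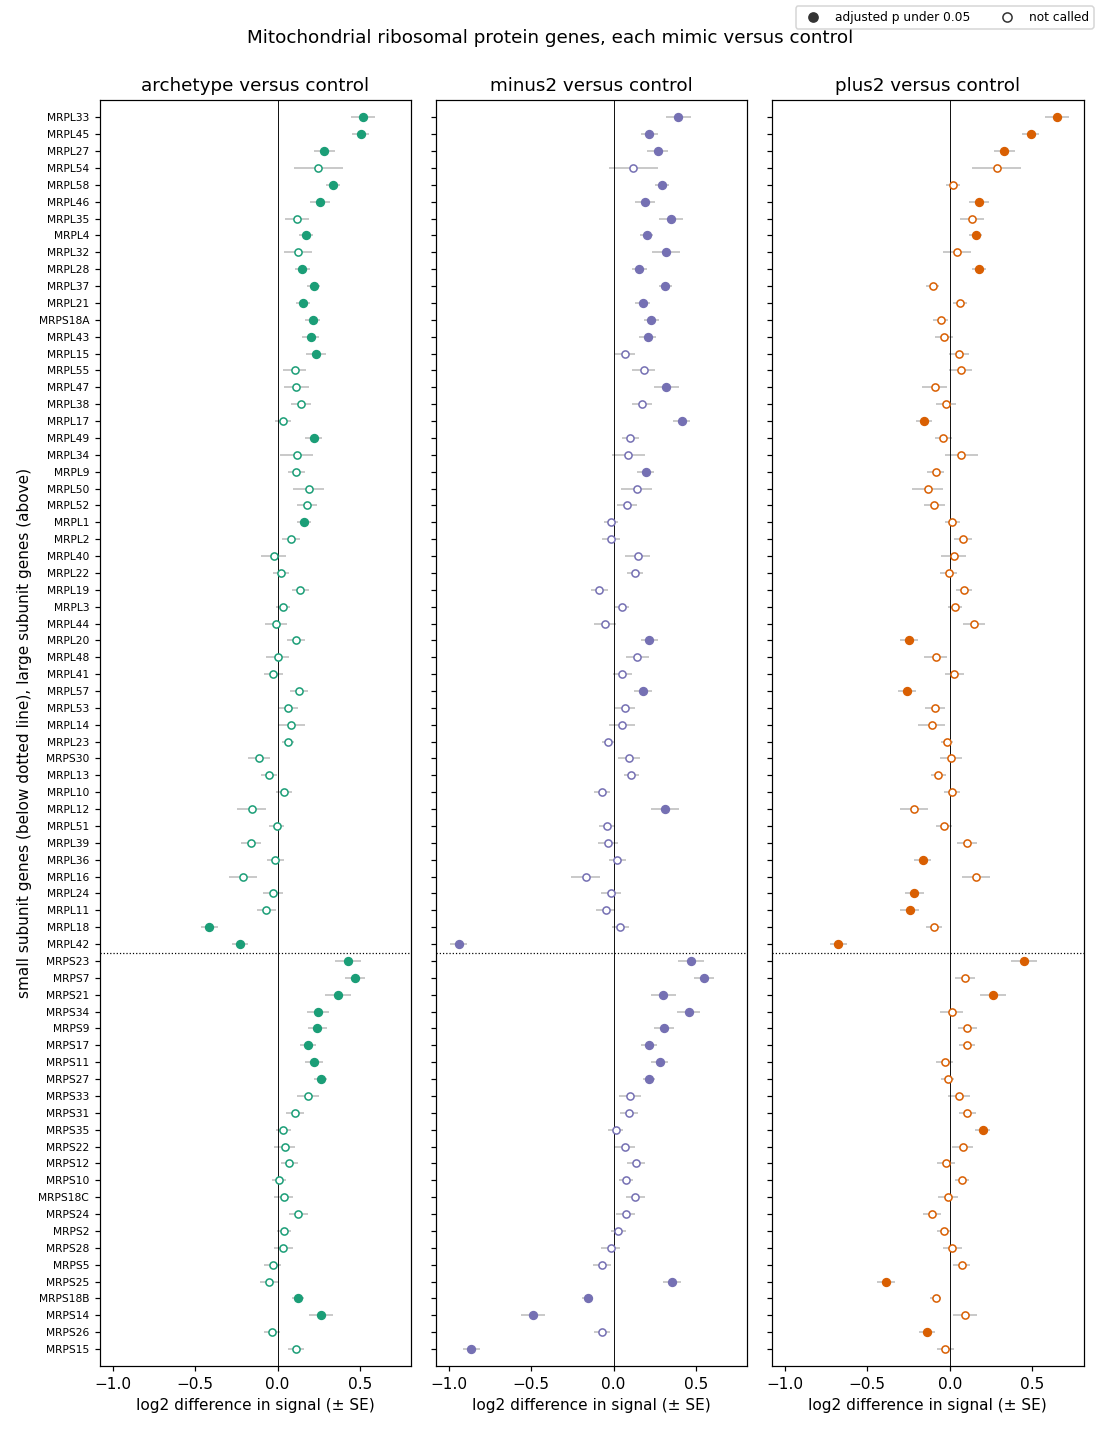
Log2 difference from control for each of the 74 members (points, filled where called, bars for SE), with the archetype, minus2 and plus2, large and small subunit apart. Most points for the archetype and minus2 lie above 0, with medians of 0.11, while those for plus2 spread to both sides with a median of 0.01, and MRPL42 and MRPS15 lie far below 0 with minus2.

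The median log2 signal over the 74 members was 8.31, 8.20 and 8.15 on the archetype arrays, 8.21, 8.20 and 8.20 on the minus2 arrays and 8.04, 8.08 and 8.04 on the plus2 arrays, against 8.10, 8.06 and 8.09 on the control arrays. Every archetype and minus2 array lay above every control array by this measure, and the plus2 arrays overlapped control. The group values were 8.22 ± 0.08 for the archetype group, 8.20 ± 0.005 for the minus2 group and 8.05 ± 0.03 for the plus2 group, against 8.08 ± 0.02 in control (SD, n = 3 each). Over all tested genes the medians were 7.24 ± 0.02, 7.25 ± 0.03 and 7.23 ± 0.02 with the archetype, minus2 and plus2, against 7.22 ± 0.03 in control, a narrower range.

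**Figure D2:**
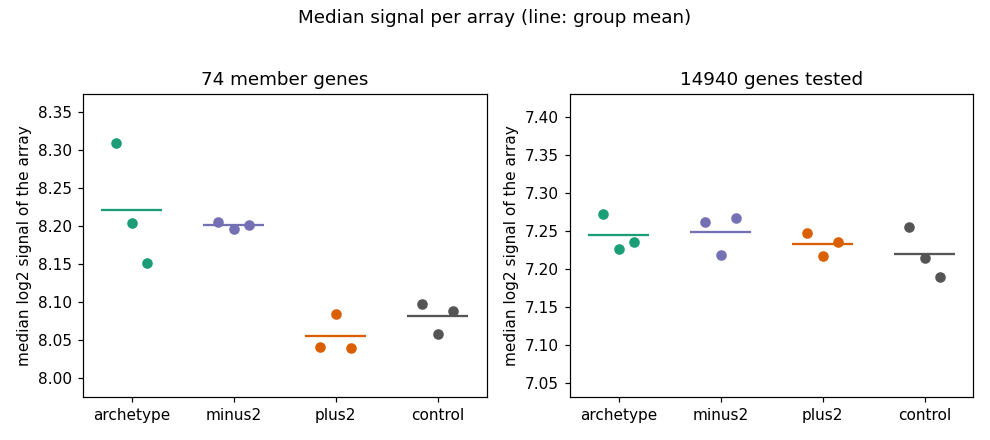
Median log2 signal over the 74 members and over all 14940 tested genes, 1 point per array, by group. The members' medians on archetype and minus2 arrays run from 8.15 to 8.31, above the control arrays at 8.06 to 8.10, while the medians over all genes stay close together in the 4 groups.

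In both subunits, more genes were called higher than lower with the archetype and minus2. The same held for all tested genes (14.3%, 17.5% and 17.4% higher with the archetype, minus2 and plus2, and 10.3%, 11.9% and 16.2% lower). Of the 50 large-subunit genes, 14 were called higher and 2 lower with the archetype, 19 higher and 1 lower with minus2, and 6 higher and 7 lower with plus2, which is 28%, 38% and 12% higher and 4%, 2% and 14% lower. Of the 24 small-subunit genes, 10 were called higher and 0 lower with the archetype, 9 higher and 3 lower with minus2, and 3 higher and 2 lower with plus2, which is 41.7%, 37.5% and 12.5% higher and 0%, 12.5% and 8.33% lower. The difference between the subunits was not tested. Among the 74 members, 8 were called higher with each of the 3 mimics (10.8%, against 5.17% of all tested genes), 11 with the archetype and minus2 without a call for plus2 (14.9%, against 2.60%), and 33 had no call against control (44.6%, against 48.9%). These counts set comparisons side by side that share the control arrays, and no test was made of them.

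The 8 genes higher with each mimic were MRPL4, MRPL27, MRPL28, MRPL33, MRPL45, MRPL46, MRPS21 and MRPS23. MRPL33, a small protein of the large subunit with a bacterial relative, had log2 signals of 8.85, 8.64 and 8.71 with the archetype, 8.66, 8.53 and 8.64 with minus2, and 8.97, 8.73 and 8.91 with plus2, against 8.14, 8.23 and 8.28 in control. Each of the 9 mimic arrays lay above the 3 control arrays, and the differences were 0.52 ± 0.07 (SE; 1.43-fold, adjusted p = 0.000327) with the archetype, 0.39 ± 0.07 (adjusted p = 0.00181) with minus2 and 0.65 ± 0.07 (1.57-fold, adjusted p = 3.74e-05) with plus2. MRPL45 lies at the exit of the tunnel and helps hold the ribosome at the inner membrane. Its log2 signals were 11.16, 11.19 and 11.10 with the archetype, 10.92, 10.80 and 10.86 with minus2, and 11.11, 11.19 and 11.11 with plus2, against 10.57, 10.64 and 10.72 in control. The groups did not overlap with control, and minus2 stood between control and the other mimics. The differences from control were 0.50 ± 0.05 (adjusted p = 2.76e-05), 0.21 ± 0.05 (adjusted p = 0.00831) and 0.49 ± 0.05 (adjusted p = 2.1e-05) with the archetype, minus2 and plus2, and minus2 was lower than the archetype by a log2 difference of -0.29 ± 0.05 (adjusted p = 0.0016). MRPL45P2, a pseudogene of MRPL45 measured by its own cluster, had no call against control, with differences of 0.07, -0.07 and 0.01.

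Among the small-subunit genes, MRPS23, a protein added in mitochondria, had log2 signals of 8.07, 7.91 and 7.89 with the archetype, 8.12, 7.91 and 7.98 with minus2, and 7.88, 8.10 and 7.97 with plus2, against 7.50, 7.66 and 7.44 in control. The mimic groups overlapped each other and lay above control, with differences of 0.42 ± 0.08 (adjusted p = 0.00202), 0.47 ± 0.08 (adjusted p = 0.000813) and 0.45 ± 0.08 (adjusted p = 0.000896). Between mimics its largest difference was minus2 minus archetype at 0.05, with a 95% interval of -0.13 to 0.22, so that a difference of either sign within those bounds remains possible. MRPL27, whose bacterial relative reaches toward the site of peptide bond formation, stood at 7.38, 7.42 and 7.36 with the archetype, 7.35, 7.34 and 7.42 with minus2 and 7.41, 7.56 and 7.33 with plus2, against 7.02, 7.21 and 7.08 in control. Its differences were 0.28 (adjusted p = 0.0066), 0.27 (adjusted p = 0.00766) and 0.33 ± 0.06 (adjusted p = 0.00175), and no mimic array fell as low as the highest control array. MRPS21, a small-subunit protein with a bacterial relative, stood at 8.03, 7.90 and 7.85 with the archetype, 7.88, 7.88 and 7.82 with minus2 and 7.84, 7.88 and 7.74 with plus2, against 7.68, 7.62 and 7.37 in control. The lowest control array is far from the other controls, and of its differences of 0.37 ± 0.08 (adjusted p = 0.00461), 0.30 ± 0.08 (adjusted p = 0.0119) and 0.26 ± 0.08 (adjusted p = 0.0213), that with plus2 missed the threshold without control array 3 (0.17, adjusted p = 0.072), without plus2 array 1 (adjusted p = 0.0583), without plus2 array 2 (adjusted p = 0.069) and with only the 2 groups in the fit (adjusted p = 0.0663).

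The 11 genes higher with the archetype and minus2 and without a call for plus2 were MRPL21, MRPL37, MRPL43, MRPL58, MRPS7, MRPS9, MRPS11, MRPS17, MRPS18A, MRPS27 and MRPS34. The direct comparison of mimics called plus2 lower than both the archetype and minus2 for 8 of them. It uses the same arrays that picked these genes, so this count is no separate support. The like count over all tested genes of this pattern was not made. MRPS7, whose bacterial relative organises the head of the small subunit, had log2 signals of 11.00, 11.14 and 10.95 with the archetype, 11.15, 11.09 and 11.09 with minus2, and 10.73, 10.68 and 10.55 with plus2, against 10.58, 10.51 and 10.59 in control. The archetype and minus2 arrays all lay above the plus2 and control arrays, which overlapped each other. The differences from control were 0.47 ± 0.06 (adjusted p = 0.000157), 0.55 ± 0.06 (1.46-fold, adjusted p = 4.4e-05) and 0.09 ± 0.06 (adjusted p = 0.289) with the archetype, minus2 and plus2, and plus2 was lower than the archetype by -0.38 (adjusted p = 0.000699) and than minus2 by -0.46 (adjusted p = 9.42e-05). MRPL58, a peptidyl-tRNA hydrolase that frees stalled chains and was built into the large subunit, had log2 signals of 11.05, 11.00 and 11.06 with the archetype, 11.05, 11.00 and 10.94 with minus2, and 10.70, 10.69 and 10.77 with plus2, against 10.70, 10.72 and 10.69 in control. Its plus2 and control arrays again overlapped, below the rest. Its differences from control were 0.33 ± 0.04 (adjusted p = 0.000124), 0.29 ± 0.04 (adjusted p = 0.000277) and 0.02 ± 0.04 (adjusted p = 0.791), and plus2 was lower than the archetype by -0.32 (adjusted p = 0.000191) and than minus2 by -0.28 (adjusted p = 0.000267).

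MRPS27 and MRPS34 are small-subunit proteins without a bacterial relative. MRPS27 stood at 10.21, 10.15 and 10.14 with the archetype, 10.10, 10.16 and 10.10 with minus2 and 9.89, 9.90 and 9.88 with plus2, against 9.92, 9.92 and 9.87 in control. Its differences were 0.26 ± 0.04 (adjusted p = 0.000369), 0.21 ± 0.04 (adjusted p = 0.0012) and -0.01 ± 0.04 (adjusted p = 0.832), with the plus2 arrays inside the range of control. MRPS34 had its highest mean with minus2, at 10.50, 10.52 and 10.40, next to 10.14, 10.41 and 10.25 with the archetype and 9.96, 10.03 and 10.11 with plus2, against 10.07, 10.03 and 9.96 in control. The minus2 and archetype arrays overlapped. The minus2 difference from control was 0.45 ± 0.07 (adjusted p = 4e-04), and plus2 was lower than minus2 by -0.44 ± 0.07 (adjusted p = 0.000295). The archetype difference of 0.25 ± 0.07 (adjusted p = 0.0216) missed the threshold without archetype array 2 (0.17, adjusted p = 0.0815), control array 2 (adjusted p = 0.051) or control array 3 (adjusted p = 0.0795). MRPL37, a large-subunit protein added in mitochondria, differed from control by 0.22 ± 0.04 (adjusted p = 0.00166), 0.31 ± 0.04 (adjusted p = 0.000111) and -0.10 ± 0.04 (adjusted p = 0.0662), and plus2 was lower than minus2 by -0.42 (adjusted p = 6.52e-06).

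Against this upward drift a few members were clearly lower with a mimic, and these included the largest changes in the set. MRPL42, a protein added in mitochondria, had log2 signals of 11.16, 11.22 and 11.19 with the archetype, 10.51, 10.38 and 10.55 with minus2 and 10.76, 10.68 and 10.79 with plus2, against 11.40, 11.45 and 11.40 in control. No group overlapped another, in the order control, archetype, plus2, minus2 from high to low. The differences from control were -0.23 ± 0.05 (0.85-fold, adjusted p = 0.0063) with the archetype, -0.94 ± 0.05 (0.52-fold, adjusted p = 1.89e-07) with minus2 and -0.68 ± 0.05 (0.63-fold, adjusted p = 1.4e-06) with plus2. MRPL42 was the one member called lower with all 3 mimics. Between mimics it was lower with minus2 than with the archetype (-0.71, adjusted p = 1.51e-06), lower with plus2 than with the archetype (-0.45, adjusted p = 6.27e-05) and higher with plus2 than with minus2 (0.27, adjusted p = 0.00137).

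MRPS15, whose bacterial relative binds the small-subunit RNA early in assembly, was lower with minus2. Its log2 signals were 10.49, 10.37 and 10.38 with the archetype, 9.41, 9.42 and 9.50 with minus2 and 10.28, 10.32 and 10.24 with plus2, against 10.37, 10.24 and 10.31 in control. The minus2 arrays lay far below all others. The minus2 difference from control was -0.86 ± 0.05 (0.55-fold, adjusted p = 3.08e-07), that from the archetype was -0.97 ± 0.05 (0.51-fold, adjusted p = 1.27e-07), and plus2 was 1.79-fold higher than minus2 (adjusted p = 1.68e-07). With the archetype and plus2 the differences from control were 0.11 (adjusted p = 0.137) and -0.03 (adjusted p = 0.736). MRPS14, a protein of the small subunit's head with a bacterial relative, had log2 signals of 8.36, 8.04 and 8.10 with the archetype, 7.36, 7.46 and 7.43 with minus2 and 7.97, 7.98 and 8.04 with plus2, against 7.93, 7.94 and 7.84 in control. It was lower with minus2 than in control by a log2 difference of -0.49 ± 0.07 (adjusted p = 0.000357) and lower than with the archetype by -0.75 ± 0.07 (adjusted p = 1.67e-05), and higher with plus2 than with minus2 by 0.58 ± 0.07 (adjusted p = 5.85e-05). The archetype arrays lay above control (0.26 ± 0.07, adjusted p = 0.0211), a call that was lost without control array 3 (0.23, adjusted p = 0.078) and with only the 2 groups in the fit (adjusted p = 0.0649). The other MRPS14 cluster on the array gave means of 8.06, 7.50 and 7.93 with the archetype, minus2 and plus2, against 7.65 in control. There minus2 was again lowest, but much closer to control than in the chosen cluster, and the archetype and plus2 stood farther above control. That other cluster was not tested on its own.

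MRPL18, a relative of the bacterial protein that binds ribosomal RNA in the central protuberance, was called lower than control with the archetype and not with the isomiRs. Its log2 signals were 7.54, 7.67 and 7.70 with the archetype, 8.11, 8.15 and 8.01 with minus2 and 7.98, 7.93 and 7.96 with plus2, against 8.04, 8.04 and 8.07 in control. The archetype arrays lay below all others, with a difference from control of -0.41 ± 0.05 (0.75-fold, adjusted p = 0.000107). Both isomiRs gave more of it than the archetype did, minus2 by 0.45 (adjusted p = 5.23e-05) and plus2 by 0.32 (adjusted p = 0.000675). Whether these 4 messages hold a match to a mimic's seed was not examined here.

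**Figure D3:**
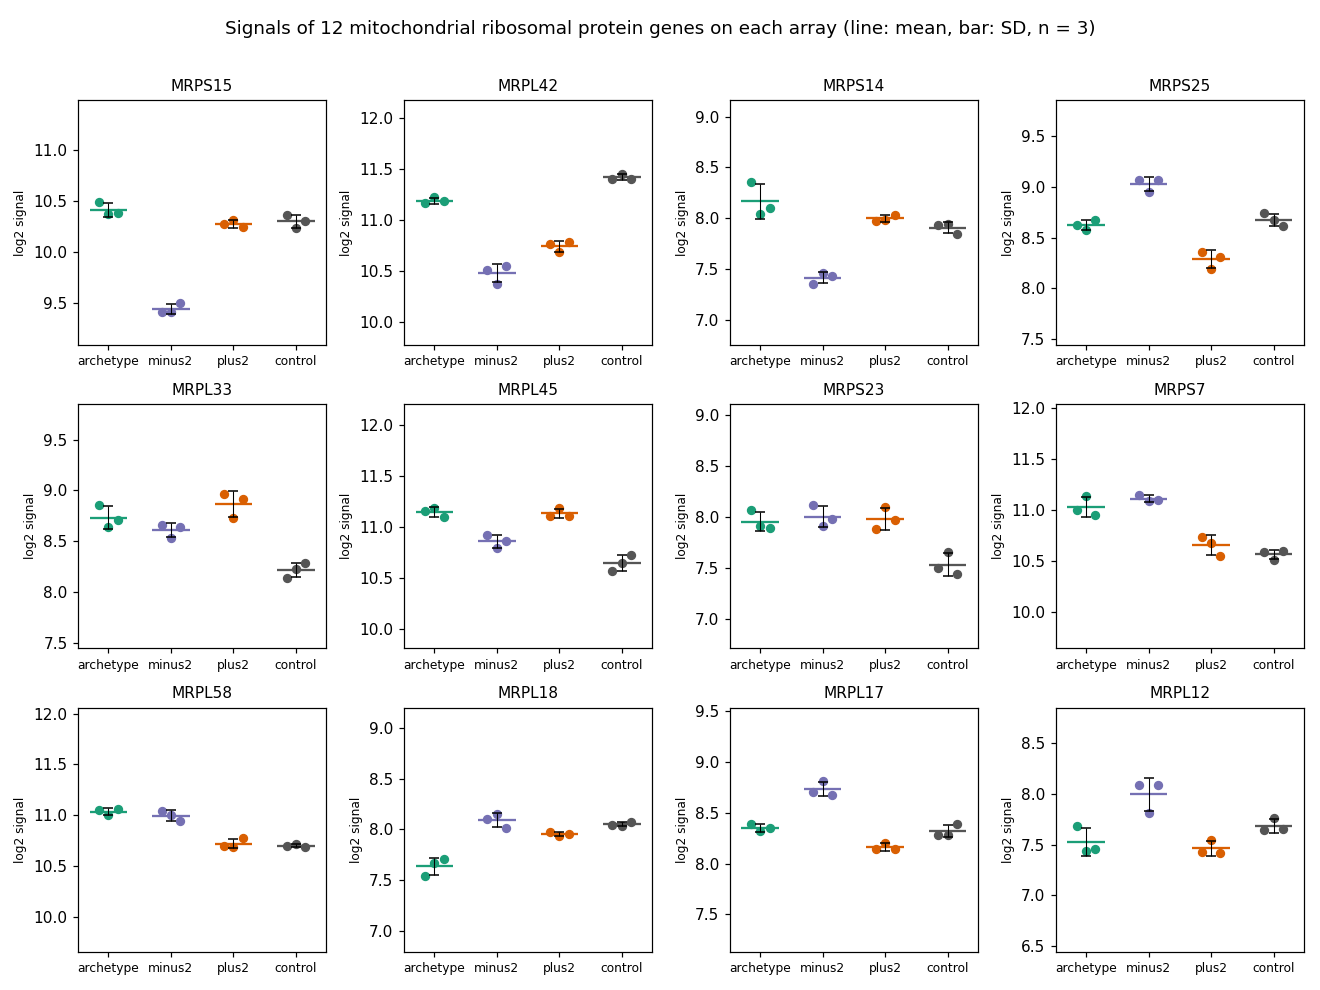
Log2 signal of 12 members on each array (points), with group means (lines) and SD (bars, n = 3), for the archetype, minus2, plus2 and control. MRPS15 and MRPS14 are lowest with minus2, MRPL18 with the archetype, MRPL33, MRPL45 and MRPS23 are above control with each mimic, and the plus2 arrays of MRPS7 and MRPL58 overlap control.

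The mimics were also compared with each other directly. The largest number of calls was between plus2 and minus2, where 38 members were called (51.4%), 9 higher and 29 lower with plus2, against 38.7% of all tested genes, 17.8% higher and 20.9% lower. Between plus2 and the archetype, 28 members were called (37.8%), 4 higher and 24 lower with plus2, against 28.9% of all tested genes, 13% higher and 15.9% lower. Between minus2 and the archetype, 15 members were called (20.3%), 8 higher and 7 lower with minus2, against 24.3% of all tested genes, 12.4% higher and 11.8% lower. The median log2 differences were -0.11, -0.09 and 0.01 in that order, against -0.01, -0.00 and 0.01 over all tested genes. Another scaling moved these splits: quantile normalisation gave 12 higher and 23 lower between plus2 and minus2, and centring the arrays on their medians gave 5 higher and 7 lower between minus2 and the archetype. The higher count of 8 in that comparison also rested on single arrays and on the filter. The comparison gave 4 higher and 8 lower without archetype array 3, and 4 and 7 without minus2 array 1, without minus2 array 2 or without the filter on low signals, and 5 and 7 without archetype array 2 or minus2 array 3. Calls of 1.25-fold or more numbered 12 between plus2 and minus2, 7 between plus2 and the archetype and 7 between minus2 and the archetype (16.2%, 9.46% and 9.46% of members, against 18.9%, 11.9% and 10.1% of all tested genes). Arrays did not overlap for 47, 34 and 27 members (63.5%, 45.9% and 36.5%, against 47.8%, 39.8% and 41.8%). Over the 4 groups together, limma's moderated F test called 48 of the 74 members (64.9%), against 51.7% of all tested genes. Among genes above the median signal, 50.2%, 38.9% and 33.6% were called between plus2 and minus2, plus2 and the archetype, and minus2 and the archetype. Called lower were 28.2%, 22.1% and 16.2%. In that fit, 43, 30 and 16 of the 71 members were called, 33, 26 and 8 of them lower. Their shares called thus lay somewhat above, near and below those of brighter genes. Their shares called lower with plus2 stayed above. The F test was not set against brighter genes.

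Of the members, 6 were called in opposite directions by a pair of mimics against control (8.11%, against 6.31% of all tested genes), a share near the background. Direct comparisons of those mimics use the same arrays that picked these genes, so they are no separate support. MRPS25, a small-subunit protein added in mitochondria, had log2 signals of 8.62, 8.58 and 8.67 with the archetype, 9.07, 8.95 and 9.06 with minus2 and 8.36, 8.19 and 8.31 with plus2, against 8.74, 8.67 and 8.61 in control. The minus2 arrays lay above and the plus2 arrays below every other array. The difference from control was 0.35 ± 0.06 with minus2 (adjusted p = 0.000612) and -0.39 ± 0.06 with plus2 (adjusted p = 0.000256), and plus2 was lower than minus2 by -0.74 ± 0.06 (0.60-fold, adjusted p = 1.17e-06). MRPL17, MRPL20 and MRPL57 had the same signs as MRPS25 with minus2 and plus2. MRPL17, whose bacterial relative lies by the tunnel exit, stood at 8.39, 8.32 and 8.35 with the archetype, 8.71, 8.81 and 8.68 with minus2 and 8.14, 8.21 and 8.14 with plus2, against 8.28, 8.28 and 8.39 in control. It was higher than control with minus2 (0.41 ± 0.05, adjusted p = 7.69e-05), and plus2 was lower than minus2 by -0.57 ± 0.05 (adjusted p = 3.17e-06). Its plus2 call against control (-0.16, adjusted p = 0.0286) was lost under quantile normalisation (adjusted p = 0.115), with array weights (adjusted p = 0.0538), with only the 2 groups in the fit (adjusted p = 0.0727), and without control array 3 (adjusted p = 0.111), plus2 array 1 (adjusted p = 0.078) or plus2 array 3 (adjusted p = 0.0682).

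MRPL20, a large-subunit protein whose bacterial relative is needed for assembly, stood at 9.87, 9.78 and 9.79 with the archetype, 9.97, 9.95 and 9.84 with minus2 and 9.50, 9.45 and 9.42 with plus2, against 9.77, 9.72 and 9.61 in control. The plus2 arrays were below all others, with differences of 0.22 ± 0.05 (adjusted p = 0.00947) for minus2 and -0.25 ± 0.05 (adjusted p = 0.00374) for plus2 against control, and -0.46 ± 0.05 (adjusted p = 3.06e-05) for plus2 against minus2. MRPL57, added in mitochondria, averaged 6.46 ± 0.06 in archetype samples, 6.51 ± 0.06 in minus2 samples and 6.07 ± 0.06 in plus2 samples, against 6.33 ± 0.09 in control (SD, n = 3 each). The plus2 arrays were again all below the others, at -0.26 ± 0.06 from control (adjusted p = 0.00372) and -0.44 ± 0.06 from minus2 (adjusted p = 7.3e-05). Its minus2 call against control (0.18, adjusted p = 0.0332) was lost without control array 3 (0.13, adjusted p = 0.131), minus2 array 1 (adjusted p = 0.113) or minus2 array 2 (adjusted p = 0.0961), without the filter on low signals (adjusted p = 0.0569), and with only the 2 groups in the fit (adjusted p = 0.0536). The remaining 2 of the 6, MRPS14 and MRPS18B, were called higher with the archetype and lower with minus2.

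The 3 MRPS18 genes are paralogs whose products occupy different places, that of MRPS18A in the large subunit and those of MRPS18B and MRPS18C in the small one, and their RNA did not move as a group. MRPS18A stood at 8.26, 8.28 and 8.24 with the archetype, 8.25, 8.22 and 8.35 with minus2 and 7.98, 7.94 and 8.05 with plus2, against 8.02, 8.08 and 8.04 in control, with differences from control of 0.21 ± 0.05 (adjusted p = 0.00539), 0.23 ± 0.05 (adjusted p = 0.00285) and -0.06 ± 0.05 (adjusted p = 0.408). MRPS18B stood at 10.51, 10.51 and 10.57 with the archetype, 10.24, 10.26 and 10.24 with minus2 and 10.33, 10.31 and 10.32 with plus2, against 10.38, 10.42 and 10.42 in control. None of its groups overlapped, the archetype being highest and minus2 lowest, and minus2 was lower than the archetype by -0.28 ± 0.04 (adjusted p = 0.00012) and than control by -0.16 ± 0.04 (adjusted p = 0.00539). Its archetype call (0.12, adjusted p = 0.0236) was lost without control array 1 (adjusted p = 0.0793), control array 2 (adjusted p = 0.0546) or archetype array 3 (adjusted p = 0.0979), under quantile normalisation (adjusted p = 0.0625) and with only the 2 groups in the fit (adjusted p = 0.0667). Most of its 7 clusters, the chosen one among them, are haplotype copies of 1 locus with identical group means. Their agreement is no separate support. The cluster outside these copies kept that order of groups, with means of 10.43, 10.14 and 10.20 with the archetype, minus2 and plus2, against 10.31 in control. MRPS18C, at 7.12, 7.04 and 6.92 with the archetype, 7.16, 7.11 and 7.10 with minus2 and 7.06, 7.01 and 6.87 with plus2, against 7.01, 6.98 and 6.98 in control, had no call in these comparisons, and its differences from control were 0.04 (95% interval -0.09 to 0.17), 0.13 (0.00 to 0.26) and -0.01 (-0.14 to 0.12). Under other settings it was called lower with plus2 than with minus2, with the replicate number as a block (-0.14, adjusted p = 0.0315) and without plus2 array 1 (-0.18, adjusted p = 0.0486). It was called higher with minus2 than in control with only those 2 groups in the fit (0.13, adjusted p = 0.0426).

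MRPL10 and MRPL12 form the stalk that recruits translation factors, and MRPL11 lies at its base. MRPL12 stood at 7.68, 7.44 and 7.46 with the archetype, 8.08, 7.81 and 8.09 with minus2 and 7.43, 7.55 and 7.42 with plus2, against 7.64, 7.76 and 7.65 in control. It was highest with minus2, higher than with the archetype by 0.47 ± 0.09 (adjusted p = 0.00178), and lower with plus2 than with minus2 by -0.53 ± 0.09 (adjusted p = 0.000405). Its minus2 call against control (0.31 ± 0.09, adjusted p = 0.0168) was lost without control array 1 (adjusted p = 0.0559), control array 3 (adjusted p = 0.0543), minus2 array 1 (adjusted p = 0.0698) or minus2 array 3 (adjusted p = 0.0697). The plus2 arrays of MRPL12 all lay below control, without a call (-0.22 ± 0.09, adjusted p = 0.0698). It was called lower with plus2 with only the 2 groups in the fit (adjusted p = 0.034), without archetype array 1 (adjusted p = 0.0462) and without minus2 array 2 (adjusted p = 0.0321). MRPL10 was not called in any comparison, with signals of 6.35, 6.28 and 6.40 with the archetype, 6.21, 6.19 and 6.29 with minus2 and 6.31, 6.24 and 6.39 with plus2, against 6.29, 6.31 and 6.29 in control. MRPL11 was lower with plus2, at 7.97, 8.07 and 7.87, next to 8.23, 8.14 and 8.06 with the archetype and 8.16, 8.17 and 8.16 with minus2, against 8.24, 8.25 and 8.15 in control, a difference from control of -0.24 ± 0.06 (adjusted p = 0.00674).

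Some further members differed in 1 comparison with control or only between mimics. MRPL35, with a bacterial relative in the large subunit, was higher with minus2, at 9.54, 9.64 and 9.51, next to 9.40, 9.38 and 9.23 with the archetype and 9.34, 9.43 and 9.27 with plus2, against 9.32, 9.25 and 9.08 in control (0.35 ± 0.07, adjusted p = 0.00349). MRPS35 was the one member called higher with plus2 alone, by 0.20 ± 0.05 (adjusted p = 0.00552). MRPL16, whose bacterial relative helps place tRNA on the large subunit, had no call against control. It was called lower with the archetype using array weights (adjusted p = 0.0331) and without archetype array 1 (adjusted p = 0.0239). It stood at 9.26, 9.07 and 8.91 with the archetype, 9.14, 9.03 and 9.19 with minus2 and 9.51, 9.52 and 9.32 with plus2, against 9.21, 9.35 and 9.30 in control, and was higher with plus2 than with the archetype by 0.37 ± 0.09 (adjusted p = 0.00717) and than with minus2 by 0.33 ± 0.09 (adjusted p = 0.00993). The F test called no difference for 26 members, and their fitted differences from control ran from -0.14 (MRPS26 with plus2, adjusted p = 0.0392 in that comparison) to 0.28 (MRPL54 with plus2). KGD4, known also as MRPS36, averaged 7.56, 7.51 and 7.69 with the archetype, minus2 and plus2, against 7.29 in control. Its signals on single arrays ran from 7.15 to 7.86, and whether these differences passed the threshold was not read.

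Promoters are shown because nuclear genes for mitochondrial proteins are known to be served by ETS-family factors, which include GABPA, and by YY1 and NRF1. Whether these factors had a part in the changes was not tested. RefSeq (GRCh38.p14) promoters of 300 bases, 250 before the start and 50 from it on, were at hand for 66 of the 74 members and for 10127 protein-coding genes among those tested. On either strand, the ETS motif CCGGAAG stood in 27 member promoters (40.9%), against 18.4% of all. The YY1 motif AAGATGGC stood in 20 (30.3%), against 5.18% of all, and 15 of its 21 matches lay at or after the start. One or the other was in 39 member promoters (59.1%, against 22.3% of all), and both were in 8. The core of the NRF1 motif, GCATGCGC, was found in 6 member promoters (9.09%, against 5.19%). CCAAT was in 30.3% of member promoters, against 36.7% of all, and TATAAA in 3.03%, against 6.13%. The median GC content was 60.7% in the members and 65% in all.

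The stretches below run from 90 bases before the start to base 30 after it. They are for genes higher with each mimic (MRPL33, MRPS23 and MRPL45) and for the gene lower with each (MRPL42). The genes higher with each mimic were picked, by the size of their change, only among those holding an ETS or YY1 motif. MRPL4, also higher with each mimic, holds neither. Capitals mark an ETS motif in MRPL33, an ETS motif on the other strand, written CTTCCGG, in MRPS23, and a YY1 motif in MRPL45 and MRPL42. They lie at chr2:27771629-27771748 (plus strand), chr17:57850015-57850134 (minus strand), chr17:38297078-38297197 (plus strand) and chr12:93467424-93467543 (plus strand).
MRPL33: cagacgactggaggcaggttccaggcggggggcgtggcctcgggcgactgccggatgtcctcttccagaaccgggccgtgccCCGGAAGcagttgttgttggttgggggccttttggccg
MRPS23: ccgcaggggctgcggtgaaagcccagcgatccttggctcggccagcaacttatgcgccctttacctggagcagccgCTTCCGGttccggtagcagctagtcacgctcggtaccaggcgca
MRPL45: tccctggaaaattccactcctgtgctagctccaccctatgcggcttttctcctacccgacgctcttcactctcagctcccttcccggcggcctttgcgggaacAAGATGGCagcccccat
MRPL42: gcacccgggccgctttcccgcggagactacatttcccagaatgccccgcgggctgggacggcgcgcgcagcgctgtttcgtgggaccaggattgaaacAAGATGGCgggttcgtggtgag
The YY1 letters sit just after the start both in MRPL45, which was higher with each mimic, and in MRPL42, which was lower with each. Of members with a promoter, one motif or the other was in 14 of 22 called higher, 1 of 2 called lower and 24 of 42 not called with the archetype. With minus2 the counts were 16 of 26, 2 of 4 and 21 of 36, and with plus2 they were 7 of 9, 4 of 9 and 28 of 48. The motifs were thus found in members with and without a call, and a match of letters does not show that a factor binds.

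The other genes of mitochondrial protein synthesis were read from lists of known function. Of the 4 tested mitoribosomal proteins with other names, CHCHD1 was higher with the archetype (0.26, adjusted p = 0.045), GADD45GIP1 (0.35, adjusted p = 0.0267) and the GTP-binding protein DAP3 (0.23, adjusted p = 0.0124) with minus2, and PTCD3 with plus2 (0.12, adjusted p = 0.0404). None of the 4 was lower. Of 13 tested translation factors, 5 were higher and 1 lower with the archetype, 1 higher and 1 lower with minus2, and 2 higher and 1 lower with plus2. The elongation factor gene GFM1 was higher with each mimic (0.30, 0.39 and 0.23 with adjusted p = 0.000944, 0.000121 and 0.00344). MRRF, which recycles ribosomes, was higher with the archetype (0.31, adjusted p = 0.00235) and lower with plus2 (-0.19, adjusted p = 0.0294). LRPPRC, which stabilises mitochondrial messages, was higher with the archetype (0.20, adjusted p = 0.00284) and lower with minus2 (-0.31, adjusted p = 0.000138).

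Of the 24 tested assembly factors, 7 were higher and 1 lower with the archetype, 10 higher and 1 lower with minus2, and 4 higher and 6 lower with plus2. NGRN, needed for the large-subunit RNA, was higher with each mimic by 0.85, 1.00 and 0.87 ± 0.06 with the archetype, minus2 and plus2 (adjusted p = 2.54e-06, 7.25e-07 and 1.23e-06), more than any ribosomal protein gene. TRUB2, a pseudouridine synthase of mitochondria, was higher by 0.69 and 0.75 with the archetype and minus2 (adjusted p = 2.45e-06 and 1.27e-06) and by 0.22 with plus2 (adjusted p = 0.00699), and plus2 was lower than minus2 by -0.53 (adjusted p = 8.53e-06). The archetype and minus2 further gave METTL17 (0.39 with the archetype, adjusted p = 0.000126), MRM3 (0.32 with the archetype, adjusted p = 0.00486), C1QBP (0.34 with minus2, adjusted p = 0.000284) and MALSU1 (0.33 with minus2, adjusted p = 0.00147). Lower with plus2 were RCC1L (-0.47, adjusted p = 0.00192) and MTERF3 (-0.25, adjusted p = 0.000833).

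Of 19 tested aminoacyl-tRNA synthetase and amidotransferase genes, which charge mitochondrial tRNAs, 6 were higher and 4 lower with the archetype, 4 higher and 0 lower with minus2, and 4 higher and 3 lower with plus2. NARS2, for asparagine, was lower with the archetype (-0.74, adjusted p = 2.88e-05) and with plus2 (-0.29, adjusted p = 0.0116), and HARS2, for histidine, was lower with the archetype (-0.35, adjusted p = 7.36e-05). SARS2, for serine, was higher with the archetype and plus2 (0.41 and 0.42, adjusted p = 0.00339 and 0.0021), and MARS2, for methionine, with minus2 (0.47, adjusted p = 0.00237). Of 11 tested genes of mitochondrial DNA and its transcription, 2 were higher with the archetype, 1 higher and 1 lower with minus2, and 3 lower with plus2, namely TFAM, which packages the genome and starts its transcription (-0.23, adjusted p = 0.00458), TFB2M (-0.21, adjusted p = 0.0273) and POLG, the DNA polymerase (-0.13, adjusted p = 0.0415). Of 10 tested regulators of mitochondrial biogenesis, 2 were higher with the archetype, 1 with minus2, and 2 higher and 3 lower with plus2. GABPA, an ETS-family factor, was higher with each mimic (0.45, 0.35 and 0.23, adjusted p = 0.000132, 0.000596 and 0.00807). Its partner GABPB1 (-0.25, adjusted p = 0.0341) and the coactivator gene PPRC1 (-0.59, adjusted p = 2.08e-05) were lower with plus2, while the coactivator gene PPARGC1A was higher with the archetype (0.39, adjusted p = 0.00489) and plus2 (0.55, adjusted p = 0.000359). YY1, whose motif was also looked for in the promoters, was tested and had no call with the archetype or minus2. NRF1 was not among the genes named by a single symbol and was not tested. Of all tested genes, 14.3%, 17.5% and 17.4% were called higher and 10.3%, 11.9% and 16.2% lower. The lists hold few genes, and their differences from the background were not tested.

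**Figure D4:**
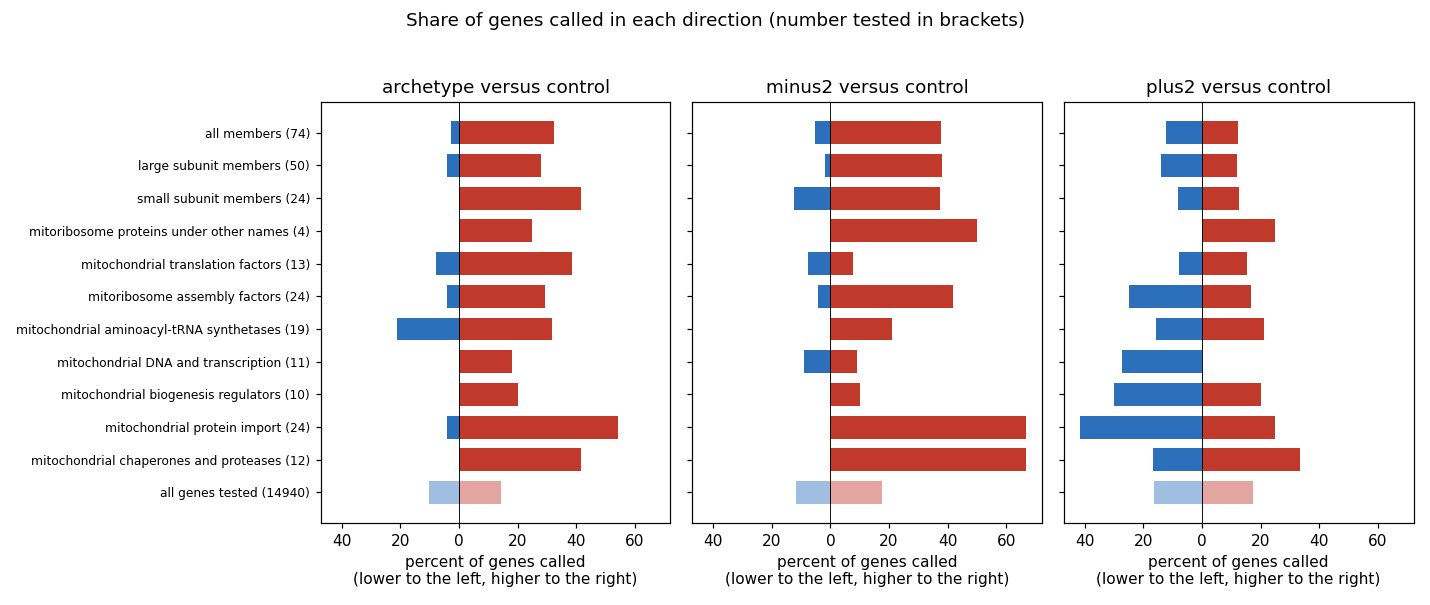
Share of each list's tested genes called higher (right of 0) and lower (left of 0) against control, in percent, with the archetype, minus2 and plus2, above the same for all 14940 tested genes. Members called higher reach 32.4%, 37.8% and 12.2% in the archetype, minus2 and plus2 panels, against 14.3%, 17.5% and 17.4% of all genes.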

How the data were processed

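RNA was measured on 12 Affymetrix arrays. The deposited values are log2 signals, 1 per transcript cluster and array, and Affymetrix Expression Console 1.4.1 and RMA stand, without their roles, in the submitters' processing notes. The log2 scale was inferred from the values, which ran from 1.79 to 19.9, and no genome build is needed for them. RMA draws all arrays toward a common distribution, so total RNA per cell was not read. Of 67528 clusters, 23781 carried 1 gene symbol, and the cluster with the highest mean over all arrays stood for each of 22411 genes. Symbols followed the platform annotation, updated for 306 clusters through RefSeq. Genes with a mean signal above the lower 1/3 of genes (4.54) were tested, 14940 in all. All 12 arrays entered 1 linear model per gene (lmFit and eBayes of limma 3.58.1, R 4.3.3), with Benjamini-Hochberg adjustment over all tested genes in each comparison and a threshold of 0.05, and the fit was tested on simulated data. Errors of differences are standard errors from this fit. Alternatives were a replicate block, median centring, quantile normalisation, other filters, array weights, other moderation, mean of clusters, fits of 2 groups, and each array left out. Members named in full were the 10 with the largest called change against control per mimic and 6 per pair of mimics, with arrays that did not overlap, those called in opposite directions, and the MRPS18, stalk and MRPL58 genes. Up to 4 called genes per other list were considered. MRPS35, MRPL37, MRPS26 and MRPL54 were chosen after their values were seen where they fall outside this rule. The members and lists were chosen with earlier results of these data known.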

Additional observations from a re-analysis of the deposited data

Results flagged for a closer look

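For 6 members (8.11%, against 6.31% of all tested genes, a share near the background), mimics were called in opposite directions against control. The direct comparison of those mimics also passed the threshold of limma's adjusted p. It uses the same arrays that picked these genes, so its passing follows largely from that choice and is no separate support. Between plus2 and minus2 the log2 differences were -0.74 for MRPS25, -0.57 for MRPL17, -0.46 for MRPL20 and -0.44 for MRPL57, each lower than control with plus2 and higher with minus2. Between minus2 and the archetype they were -0.75 for MRPS14 and -0.28 for MRPS18B, each lower than control with minus2 and higher with the archetype. In the other MRPS14 cluster, given above, minus2 was much closer to control, and that cluster was not tested on its own. The calls against control that were lost when an array was left out are given above for MRPL17, MRPL57, MRPS14 and MRPS18B.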

How the results depend on the processing

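Under the 9 alternatives and the 12 fits without 1 array, no total count of called members moved by more than 1.5 times. Medians near 0 changed sign without 1 array: minus2 against archetype (0.01) to -0.01 without archetype array 3 and -0.00 without minus2 array 3, and plus2 against control (0.01) to -0.00 without plus2 array 2. The other medians kept their sign. Of the splits by direction, array weights gave 26 higher and 4 lower with the archetype. Those with plus2 against control and between minus2 and the archetype are given above. With 1 array left out, members called ranged from 20 to 29 (archetype), 28 to 32 (minus2) and 13 to 19 (plus2) against control, from 11 to 17 (minus2 against archetype), 20 to 27 (plus2 against archetype) and 28 to 40 (plus2 against minus2), and from 41 to 47 by the F test. The median differences ranged from 0.08 to 0.13, 0.10 to 0.13 and -0.00 to 0.01 against control, and from -0.01 to 0.03, -0.11 to -0.07 and -0.12 to -0.09 between mimics. Of 88 called results for named members, 73 kept their call under every alternative, 15 lost it without 1 array or more, and 11 lost it under another setting, with none reversed, and 8 of 62 results without a call gained one under 1 alternative or more. The arrays carry replicate numbers, but 9 of 18 pairs of the same number deviated together with r above 0.1 (r from -0.04 to 0.27 over all pairs). This does not meet the rule that every pair lie above 0.1, and the labels state no pairing. With the replicate block, 29, 32 and 18 members were called against control, 15, 31 and 38 between mimics, and 46 by the F test, and 9 of 12 arrays correlated best with their own number, a hint from the data only. Background and saturation of single probes were not read, since the values are summarised signals, and 3 arrays a group limit the precision.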

Other observations

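Genes of mitochondrial protein import, which bring ribosomal proteins in from the cytosol, were also compared with control, whose arrays all these comparisons share. Of 24 tested genes, 13 were higher and 1 lower than control with the archetype, 16 higher and 0 lower with minus2, and 6 higher and 10 lower with plus2. These are 54.2%, 66.7% and 25% higher and 4.17%, 0% and 41.7% lower, against 14.3%, 17.5% and 17.4% higher and 10.3%, 11.9% and 16.2% lower among all tested genes. The differences in share were not tested. TOMM20, a receptor of the outer membrane, was higher by 0.98, 1.10 and 0.76 ± 0.04 on the log2 scale with the archetype, minus2 and plus2 (limma, adjusted p = 7.35e-08, 1.9e-08 and 1.89e-07). TIMM44, which tethers the import motor, differed from control by 0.07 (adjusted p = 0.497), 0.35 (adjusted p = 0.00116) and -0.59 (adjusted p = 1.89e-05), and GRPEL1, a nucleotide exchange factor of that motor, by 0.00 (adjusted p = 0.964), 0.47 (adjusted p = 5.12e-05) and -0.43 (adjusted p = 6.57e-05). Between plus2 and minus2 directly, GRPEL1 was lower by -0.90 (adjusted p = 1.58e-07) and TIMM44 by -0.95 (adjusted p = 3.31e-07). TOMM70, another receptor, was lower with the archetype (-0.55, adjusted p = 1.82e-05).

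Of 12 mitochondrial chaperone and protease genes, 5 were higher and 0 lower with the archetype, 8 higher and 0 lower with minus2, and 4 higher and 2 lower with plus2 (41.7%, 66.7% and 33.3% higher and 0%, 0% and 16.7% lower, beside the same background). The protease gene LONP1 was higher with each mimic, by 0.24, 0.41 and 0.25 (adjusted p = 0.00338, 7.98e-05 and 0.00214), and so was CLPP, by 0.32, 0.34 and 0.19 (adjusted p = 0.000929, 0.000553 and 0.0153).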
